A study of Mus musculus with 27 samples.

Results

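Hindlimb buds (HLBs) of mouse embryos were compared between E10.5 and an earlier stage, to describe which genes change in the hindlimb over the hours in which the bud grows out. The comparison used 5 of the 27 libraries of the series, 3 of early HLBs (replicates 1, 2 and 3) and 2 of E10.5 HLBs (replicates 1 and 3), chosen by the stage and tissue in the sample labels. E10.5 HLB replicate 2 was left out because it is listed at 0 for nearly all genes of chromosomes 5 to 9, X, Y and the distal end of chromosome 4. All libraries of this comparison came from Slc:ICR mice, an outbred stock, with no transgene or treatment named. The whole bud was cut off, so that each library holds mesenchyme, ectoderm, vessels and blood together. The labels give E10.0 for the early buds, whereas the study's text places the early HLBs at E10.25 and the early forelimb buds (FLBs) at E9.75. Buds were cut from 3 embryos according to the methods, but whether each library came from 1 of them is not stated, so that p-values measure the spread between these libraries, which may be partly technical. The rest of the series, which is used only where a difference is drawn, holds early and E10.5 FLBs, branchial arch, heart and tail bud of E10.5 embryos, and limb bud-like cells made from ES cells.

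A limb bud is a core of lateral plate mesenchyme under a sheet of ectoderm. At its tip the apical ectodermal ridge secretes FGFs that keep the distal mesenchyme growing, and at its posterior margin a group of mesenchymal cells secretes Shh, which patterns the digits. Hox genes of the 5′ ends of the HoxA and HoxD clusters are switched on in turn as the bud extends, and the first cartilage, tendon and connective tissue cells are specified in the core soon afterwards. Osr2 encodes a zinc finger transcription factor of connective tissue and joint precursors.

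The 5 libraries held the markers of their label. Pitx1 and Tbx4, transcription factors of the hindlimb, were at 236, 211 and 232 CPM (reads of a gene relative to all reads of its library, scaled between the 5 libraries) and 130.5, 127 and 128 CPM in the early HLBs. Their levels were 222 and 233 CPM and 161 and 163 CPM at E10.5. In what follows, values are given for replicates 1, 2 and 3 of the early HLBs, called early, and for replicates 1 and 3 of the E10.5 HLBs. Tbx5, the forelimb counterpart, was at 0.523, 0.847 and 0.623 CPM and then at 0.174 and 0.170 CPM, all under 1 CPM. Of the 8 tested genes of limb type, which are Pitx1, Tbx4, Isl1 and Hox genes of the HoxC cluster, Tbx5 being too low to test, 3 rose and 3 fell by the test described next (median log2 fold change -0.21), with 2 higher and 2 lower without E10.5 replicate 1, and 2 higher and 2 lower without E10.5 replicate 3. Early libraries held between 19642300 and 21001300 reads and E10.5 libraries between 5648200 and 5732770, as estimated from the spacing of their low values. A count of 3 reads, below which a level was taken as not measurable, therefore stood at 0.143 to 0.153 CPM in the early libraries and at 0.523 to 0.531 CPM at E10.5 (counting error only). The 6 early limb bud libraries, fore and hind, differ in depth from the E10.5 ones. They also hold a smaller share of values that are whole multiples of 1 read. Stage and library set therefore cannot be told apart. Early HLB replicate 1 was the early library nearest to the E10.5 mean in 344 of the 473 genes that changed 2-fold, or 72.7% of them, and in 48.97% of all genes tested.

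A level of 1 CPM was reached in 2 or more of the libraries by 12649 genes. Of these, 3679 differed between the stages at an adjusted p below 0.05 (limma on log2(CPM + 0.5), two-sided, Benjamini-Hochberg over all genes tested), which is 29.1% of those tested. Of these, 1610 genes (12.7%) were higher at E10.5 and 2069 (16.4%) were lower. On CPM as deposited, without scaling between libraries, the split was 2101 higher and 1610 lower. A change of at least 2-fold was reached by 473 genes (3.74%), with 225 higher (1.78%) and 248 lower (1.96%). The libraries of the stages did not overlap in 56.9% of the genes tested, and the median log2 fold change over all genes was -0.02. With E10.5 replicate 1 left out 1864 genes were called, without E10.5 replicate 3 1718, and without early replicate 3 2179, and the counts of the gene and marker lists are therefore also given without each E10.5 library. The left-out E10.5 replicate 2 had values for 320 of the 2-fold genes and lay beyond all early libraries on the called side in 310 of them, where 74.5% of all genes with a value lay outside the early range on either side.

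Osr2 had the largest log2 fold change among the listed transcription factors (chromosome 15, 35296098 to 35303305, mm10). Its level was 1.47, 0.847 and 0.831 CPM early and 13.4 and 15.8 CPM at E10.5 (log2 fold change 3.30 ± 0.23, adjusted p = 2.18e-05). Both E10.5 libraries lay far above the 3 early ones, which were themselves above the level of 3 reads. Osr1, its paralog, stood at 4.18, 2.79 and 2.39 CPM early and 12.2 and 12.4 CPM at E10.5 (log2 fold change 1.85 ± 0.21, adjusted p = 0.00032). Its early libraries did not overlap the E10.5 ones either. Both calls held in all 18 alternative settings that kept the adjusted p of 0.05, which "each setting" stands for in what follows.

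**Figure D1:**
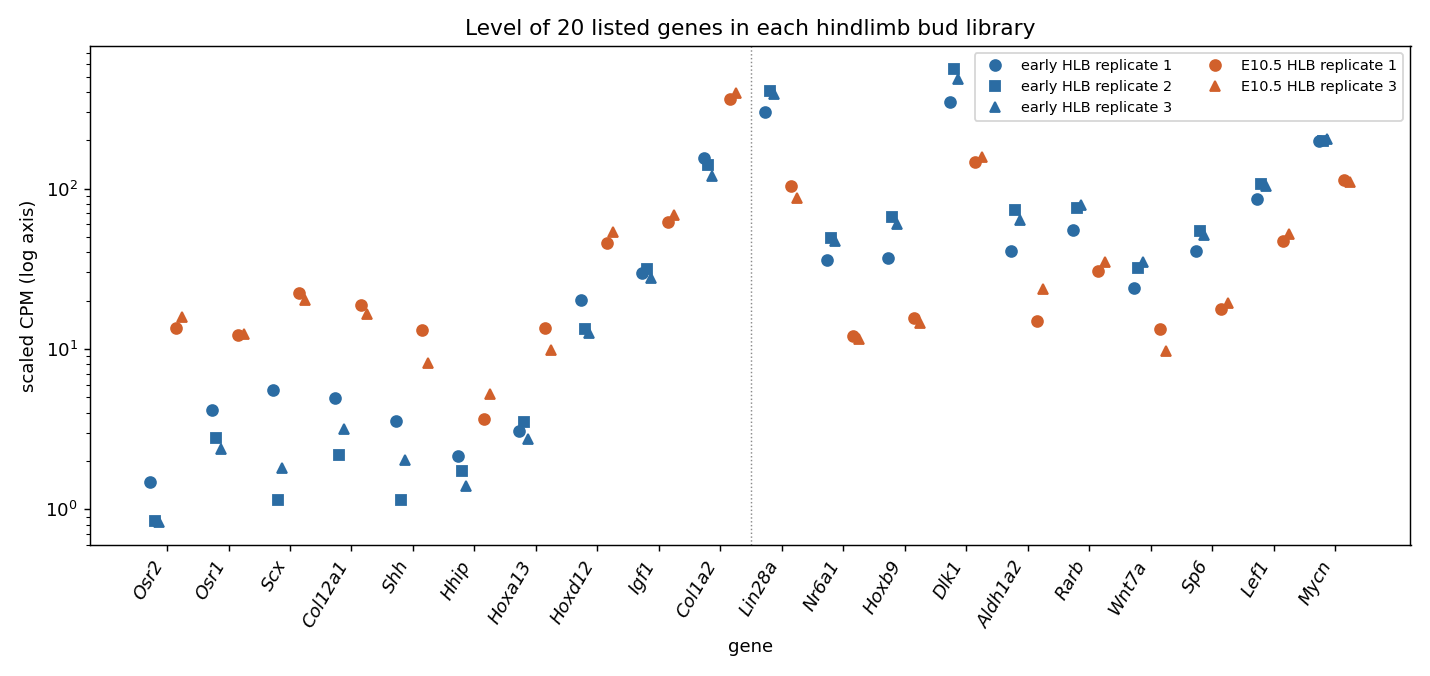
Scaled CPM (vertical log axis) of 20 listed genes (horizontal axis) in each library, with blue symbols for the 3 early HLBs and orange symbols for the 2 E10.5 HLBs, circles, squares and triangles standing for replicates 1, 2 and 3. The 10 genes left of the dotted line were higher at E10.5 and the 10 on the right were lower, with no overlap between the stages. Osr2 rose from 1.05 to 14.6 CPM on average and Lin28a fell from 364 to 95.6 CPM.

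The connective tissue list, to which both genes belong, held 26 tested genes, of which 12 rose, 3 fell and 11 did not pass the test (median log2 fold change 0.30). Scx, a bHLH factor of tendon progenitors, was at 5.51, 1.15 and 1.82 CPM early and 22.5 and 20.2 CPM at E10.5 (log2 fold change 2.94 ± 0.59, adjusted p = 0.0227). Early replicate 1 was the highest early library, and the call was lost without early replicate 3 or without either E10.5 library. Among collagens, Col12a1, a fibril-associated collagen of tendon and fascia, stood at 4.94, 2.19 and 3.17 CPM early and 18.8 and 16.5 CPM at E10.5 (log2 fold change 2.26 ± 0.26, adjusted p = 0.000469). Col1a2, a chain of collagen I, was at 154, 141 and 120.3 CPM early and 359.6 and 393 CPM at E10.5 (log2 fold change 1.44 ± 0.10, adjusted p = 8.77e-05). Its partner chain Col1a1 did not pass the test, with 53.8, 114 and 79.5 CPM early and 86.8 and 101 CPM at E10.5 (adjusted p = 0.682), where the groups overlapped. Vcan, a large proteoglycan of loose mesenchyme, rose from 162 ± 31.4 (SD, n = 3) to 317 ± 10.003 CPM (SD, n = 2), with an adjusted p of 0.00763 that was lost without early replicate 2. Tcf7l2, a marker of muscle connective tissue, rose by 0.94 ± 0.15 on the log2 scale. Bgn, Col3a1, Col6a2 and Col6a3 also rose, and so did Tcf4, a gene distinct from Tcf7l2 that the list counts. Of these, Tcf4, Col3a1 and Col6a2 were lost without either E10.5 library, Col6a2 also without early replicate 3, Bgn without E10.5 replicate 1 and Col6a3 without E10.5 replicate 3. The members that fell were Col14a1 at 12.02, 42.3 and 30.7 CPM early and 2.61 and 1.53 CPM at E10.5 (log2 fold change -3.35 ± 0.64, adjusted p = 0.029), the matrix glycoprotein Tnc (log2 fold change -1.62 ± 0.37, adjusted p = 0.0202) and the immediate early factor Egr1 (log2 fold change -0.86 ± 0.23, adjusted p = 0.0188). The early libraries of Col14a1 were widely spread, and its call and that of Tnc were lost without early replicate 3 or either E10.5 library, and that of Egr1 without early replicate 2, early replicate 3 or E10.5 replicate 3. Postn, a matrix protein of fibroblasts, was at 18.96, 92.8 and 33.02 CPM early and 8.36 and 7.30 CPM at E10.5, with early replicate 2 far above the others, and did not pass the test (adjusted p = 0.149). The list had 7 higher and 1 lower without E10.5 replicate 1, and 7 higher and 0 lower without E10.5 replicate 3.

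Of the 12 cartilage genes tested, 7 rose and 1 fell (median 0.49). Sox9, the factor that starts chondrogenesis, was at 41.5, 21.6 and 28.9 CPM early and 70.7 and 84.2 CPM at E10.5 (log2 fold change 1.37 ± 0.30, adjusted p = 0.0374), a call that was lost without early replicate 3 or either E10.5 library. Sox5, which acts with it, was at 13.9, 11.7 and 11.6 CPM early and 23.5 and 26.99 CPM at E10.5 (log2 fold change 1.00 ± 0.12, adjusted p = 0.000401), and its groups stood clearly apart. Sox6, the close relative of Sox5, went the other way, with 19.4, 34.4 and 27.4 CPM early and 10.1 and 12.1 CPM at E10.5 (log2 fold change -1.22 ± 0.22, adjusted p = 0.00694), a call lost without either E10.5 library. Runx2, a factor of hypertrophic cartilage and bone, rose from under 1 CPM to 1.74 and 2.21 CPM (log2 fold change 1.47 ± 0.28, adjusted p = 0.00344). Of the matrix genes, Col2a1 (0.42 ± 0.06), Col9a1 (0.85 ± 0.11), Col9a2 (1.40 ± 0.29) and Col11a1 (0.57 ± 0.09) rose on the log2 scale. Acan, Matn1 and Comp, which mark laid down cartilage matrix, were at or under the level of 3 reads in the E10.5 libraries. The list had 4 higher and 0 lower without E10.5 replicate 1, and 4 higher and 0 lower without E10.5 replicate 3.

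Hox genes split by their place in the cluster. Of 13 tested genes of paralog groups 9 to 13 in the HoxA, HoxC and HoxD clusters, 7 rose, 1 fell and 5 did not pass the test (median 0.58). Of the 24 tested genes of groups 1 to 8, with Hoxb9 added, 18 fell and none rose (median -1.18), with 14 of them past 2-fold. The fall was spread over the clusters, and all 9 tested HoxB genes were among those that fell. The 6 members that did not pass, Hoxa2 to Hoxa7, were all of the HoxA cluster, with log2 fold changes from -0.61 to -0.13.

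Hoxa13 and Hoxd12 rose most among the posterior genes, and their promoters are shown because both genes rose although they lie in separate clusters. The sequences are those of RefSeq on GRCm38.p6 (the assembly of mm10), from 250 bases before to 50 bases after the gene's start. Capitals mark a CCAAT box (CCAAT, on either strand) or a GC box (GGGCGG, on either strand), which may overlap each other. Hoxa13 is shown at chr6:52260831-52261130 on the minus strand, and Hoxd12 at chr2:74674763-74675062 on the plus strand.
Hoxa13: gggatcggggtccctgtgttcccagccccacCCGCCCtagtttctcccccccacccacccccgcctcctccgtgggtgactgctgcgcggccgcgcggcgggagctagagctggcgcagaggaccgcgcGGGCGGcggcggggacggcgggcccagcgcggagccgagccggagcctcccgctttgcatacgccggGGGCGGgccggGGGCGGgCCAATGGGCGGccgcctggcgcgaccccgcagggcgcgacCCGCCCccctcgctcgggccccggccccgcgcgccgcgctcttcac
Hoxd12: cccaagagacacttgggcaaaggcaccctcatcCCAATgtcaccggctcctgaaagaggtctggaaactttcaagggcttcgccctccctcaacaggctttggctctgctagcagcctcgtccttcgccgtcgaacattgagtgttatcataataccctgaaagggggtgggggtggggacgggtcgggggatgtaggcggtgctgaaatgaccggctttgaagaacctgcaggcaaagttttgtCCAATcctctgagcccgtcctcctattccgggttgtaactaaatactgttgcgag
Over all 32851 promoters of the same length, 37.4% held CCAAT and 35.7% held GGGCGG on either strand. Hoxa13 had 6 GC boxes and 1 CCAAT box in this window, and Hoxd12 had 2 CCAAT boxes and no GC box. A TATA box (TATAAA, on either strand), which 13.6% of all promoters held, was in neither.

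Hoxa13, which marks the future digits and ankle, was at 3.09, 3.49 and 2.75 CPM early and 13.4 and 9.84 CPM at E10.5 (log2 fold change 1.74 ± 0.19, adjusted p = 0.000241). Hoxd12 stood at 20.1, 13.2 and 12.6 CPM early and 45.8 and 53.8 CPM at E10.5 (log2 fold change 1.70 ± 0.20, adjusted p = 0.001). Hoxd13, the last gene of its cluster, was already expressed early, at 43.8, 53.2 and 44.96 CPM, and reached 73.5 and 70.1 CPM (log2 fold change 0.60 ± 0.09, adjusted p = 0.000959). None of these genes had an early library that overlapped an E10.5 one, and their calls held in each alternative setting. Hoxa10 rose by less and was at 156, 108 and 129.7 CPM early and 219 and 199 CPM at E10.5 (log2 fold change 0.69 ± 0.15, adjusted p = 0.024). Hoxa11 was at 109, 76.4 and 93.6 CPM early and 146 and 129.8 CPM at E10.5 (log2 fold change 0.58 ± 0.15, adjusted p = 0.0318). Both lost their calls without early replicate 3 or either E10.5 library. Hoxa11 shares 800 of its 2287 exonic bases with Hoxa11os on the other strand, and since the strand setting of the counting is not given in the sources used here, reads of such pairs may be mixed. Hoxc10 (0.38 ± 0.06) and Hoxc11 (0.71 ± 0.18), genes of the hindlimb level of the body axis, also rose, whereas Hoxc9 fell (-0.42 ± 0.10), all on the log2 scale. Hoxc11 was lost without either E10.5 library and Hoxc9 without early replicate 3 or E10.5 replicate 3. Hoxd9, Hoxd10, Hoxd11, Hoxa9 and Hoxc13 did not pass the test. Hoxd11 was at 34.3, 30.04 and 35.8 CPM early and 34.8 and 34.97 CPM at E10.5, with the groups interleaved. The posterior list had 4 higher and 1 lower without E10.5 replicate 1, and 4 higher and 0 lower without E10.5 replicate 3.

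Among the anterior genes, Hoxb9 was at 37.2, 66.99 and 59.9 CPM early and 15.5 and 14.6 CPM at E10.5 (log2 fold change -1.78 ± 0.26, adjusted p = 0.00578), a call lost without E10.5 replicate 3. Hoxb6 fell from 6.60, 6.97 and 7.37 CPM to 2.09 and 2.21 CPM (log2 fold change -1.50 ± 0.17, adjusted p = 0.00032). Hoxd3 fell from 10.6, 9.02 and 8.10 CPM to 1.22 and 2.55 CPM (log2 fold change -2.08 ± 0.24, adjusted p = 0.000342). Each of them had E10.5 libraries well below every early one. Hoxb1 was listed at 0 in both E10.5 libraries, against 0.428, 1.10 and 1.04 CPM early, so that no fold is given, and its call was lost without either E10.5 library. Hoxb2 and Hoxb3 share exonic bases with Hoxb3os on the other strand, and Hoxd3 and Hoxd4 share exons with a transcript on their own strand. Of the anterior list, 15 fell without E10.5 replicate 1 and 15 without E10.5 replicate 3.

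**Figure D2:**
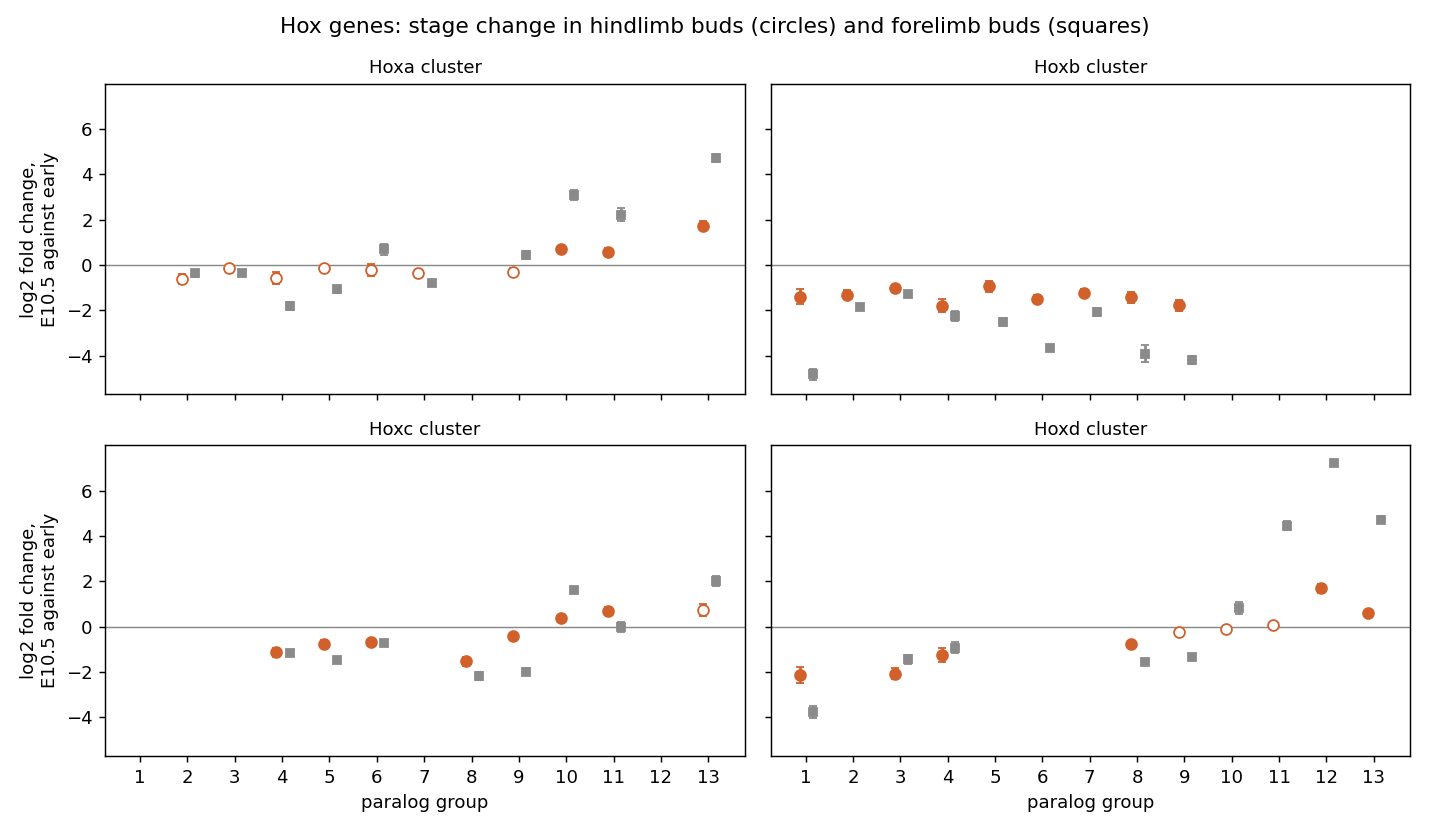
Log2 fold change between the stages (vertical axis) of tested Hox genes by paralog group (horizontal axis), in a panel for each cluster, with orange circles for HLBs (filled where called) and grey squares for FLBs, and bars of 1 SE. In HLBs the filled circles lie below 0 up to group 8 and above 0 from group 10 on, and Hoxd12 and Hoxd13 of FLBs lie far above those of HLBs.

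In the hedgehog pathway the ligand and several of its receptors and feedback targets rose. Shh, the ligand of the posterior margin, was at 3.56, 1.15 and 2.02 CPM early and 13.1 and 8.15 CPM at E10.5 (log2 fold change 2.08 ± 0.38, adjusted p = 0.00564). Both E10.5 libraries exceeded the early ones, but the call was lost without E10.5 replicate 1, and Shh shares exonic bases with a gene on the other strand. Of 7 receptors and feedback genes, 5 rose and 1 fell (median 0.81). Ptch1, the Shh receptor and a standard target, was at 49.1, 36.4 and 42.01 CPM early and 68.999 and 80.1 CPM at E10.5 (log2 fold change 0.81 ± 0.12, adjusted p = 0.00172), and its stages did not overlap. The secreted antagonist Hhip rose by 1.13 ± 0.24 on the log2 scale (adjusted p = 0.00628), a call lost without E10.5 replicate 3. Of the coreceptors, Boc stood at 30.4, 21.4 and 23.4 CPM early and 56.98 and 64.8 CPM at E10.5 (log2 fold change 1.28 ± 0.14, adjusted p = 0.000438). Cdon rose by 0.34 ± 0.07, whereas Gas1 was lower (-0.20 ± 0.06), all on the log2 scale. The calls of Cdon and Gas1 were lost without E10.5 replicate 3, and that of Gas1 also without early replicate 2, early replicate 3 or E10.5 replicate 1 and on CPM as deposited. Gli1, the transcription factor that is itself a target, was at 37.9, 16.04 and 17.9 CPM early and 48.3 and 47.7 CPM at E10.5. The E10.5 libraries of Gli1 were higher than every early one, but early replicate 1 was more than 2-fold above the other early libraries, and the gene did not pass the test (adjusted p = 0.16). Gli2, Gli3 and the signal transducer Smo did not pass either. Across the 11 genes, 6 rose and 1 fell, and there were 4 higher and 0 lower without E10.5 replicate 1, and 3 higher and 0 lower without E10.5 replicate 3.

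The promoters of Ptch1 and Hhip are shown as those of the members that report the pathway, with GC boxes (GGGCGG, on either strand) in capitals. Ptch1 is at chr13:63565686-63565985 on the minus strand and Hhip at chr8:80057959-80058258 on the minus strand of GRCm38.p6.
Ptch1: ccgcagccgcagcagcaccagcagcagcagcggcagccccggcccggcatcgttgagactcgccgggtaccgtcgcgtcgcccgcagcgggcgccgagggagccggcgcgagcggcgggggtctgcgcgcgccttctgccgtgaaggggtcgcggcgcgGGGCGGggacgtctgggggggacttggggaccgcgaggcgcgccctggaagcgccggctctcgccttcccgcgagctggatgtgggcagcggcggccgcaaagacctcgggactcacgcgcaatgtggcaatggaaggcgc
Hhip: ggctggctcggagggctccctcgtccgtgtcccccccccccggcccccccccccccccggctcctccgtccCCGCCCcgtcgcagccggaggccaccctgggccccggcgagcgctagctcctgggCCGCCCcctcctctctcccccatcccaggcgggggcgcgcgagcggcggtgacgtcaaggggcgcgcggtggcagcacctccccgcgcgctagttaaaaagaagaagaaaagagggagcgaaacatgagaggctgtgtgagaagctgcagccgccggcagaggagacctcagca
Neither window held the GLI core motif (GACCACCCA, on either strand), which was in 0.253% of all promoters of this length.

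Genes of the posterior and of the anterior mesenchyme were listed apart. Hand2, which lies upstream of Shh in the posterior bud, was at 105, 108 and 100.1 CPM early and 122 and 143 CPM at E10.5 (log2 fold change 0.34 ± 0.07, adjusted p = 0.00621). Tbx2, a T-box gene of the margins, rose by 0.31 ± 0.08 on the log2 scale. Both were lost without E10.5 replicate 3, and Tbx2 also without E10.5 replicate 1. Of 7 tested anterior genes 5 fell and none rose (median -0.69). Among them were the homeobox genes Alx1 and Alx4 and the Iroquois genes Irx3 and Irx5. Irx3 was at 94.7, 111 and 124 CPM early and 61.9 and 68.4 CPM at E10.5 (log2 fold change -0.74 ± 0.11, adjusted p = 0.00143) and held under each setting. Alx4 stood at 125, 161 and 184 CPM early and 92.3 and 99.5 CPM at E10.5 (log2 fold change -0.69 ± 0.16, adjusted p = 0.0284), with no overlap between the stages. The calls of Alx1, Alx4 and Irx5 were lost without either E10.5 library, and that of Alx4 also without early replicate 2. Of the anterior genes 1 gene fell without E10.5 replicate 1 and 1 without E10.5 replicate 3.

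**Figure D3:**
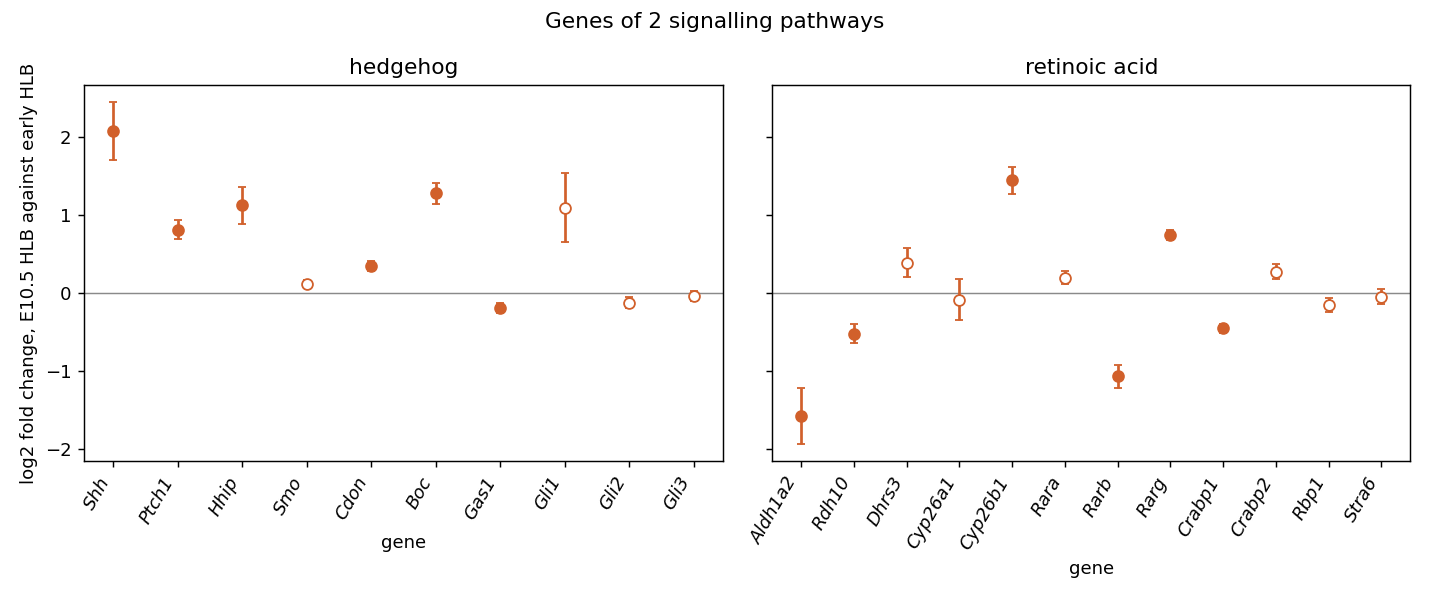
Log2 fold change between E10.5 and early HLBs (vertical axis, bars of 1 SE) for listed genes of the hedgehog pathway (left) and of retinoic acid metabolism and response (right), filled where called. Shh at 2.08 and Boc at 1.28 lie highest on the left, and Cyp26b1 at 1.44 and Aldh1a2 at -1.58 mark the ends on the right.

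Retinoic acid (RA) is made in the trunk and flank and removed from the distal bud. Of 3 tested genes of its synthesis 2 fell, and of 2 of its breakdown 1 rose. Aldh1a2, the enzyme of the last step of synthesis, was at 40.6, 73.5 and 63.9 CPM early and 14.98 and 23.8 CPM at E10.5 (log2 fold change -1.58 ± 0.36, adjusted p = 0.0435). Rdh10, which acts one step before it, changed by -0.52 ± 0.12 on the log2 scale, lost without early replicate 3 or either E10.5 library. The Aldh1a2 libraries did not overlap between stages, but the call was lost without early replicate 2, early replicate 3 or E10.5 replicate 1, and also with E10.5 replicate 2 added. Dhrs3, a retinal reductase listed with them, did not pass the test (0.39 ± 0.19 on the log2 scale, adjusted p = 0.145). Cyp26b1, the RA-degrading enzyme of the distal mesenchyme, was at 75.7, 50.3 and 55.6 CPM early and 161 and 165 CPM at E10.5 (log2 fold change 1.44 ± 0.17, adjusted p = 0.00297). This was a clear separation, and it held in each setting. Its relative Cyp26a1 did not pass the test, with 1.81, 3.04 and 1.92 CPM early and 2.44 and 1.70 CPM at E10.5 (adjusted p = 0.829). The RA-inducible receptor Rarb fell, from 55.5, 75.4 and 79.4 CPM to 30.8 and 34.6 CPM (log2 fold change -1.07 ± 0.15, adjusted p = 0.00247). Rarg, the receptor of precartilage, rose from 124, 106 and 114 CPM to 187 and 197 CPM (log2 fold change 0.74 ± 0.07, adjusted p = 0.000104). Rarb shares exonic bases with Top2b on the other strand, and each of the 6 early limb bud libraries of the series lay above all 20 others for it. Of the proximal homeobox genes that RA maintains, Meis3 fell from 12.8, 16.7 and 16.3 CPM to 7.14 and 5.94 CPM (log2 fold change -1.16 ± 0.15, adjusted p = 0.000566). Meis2 passed the test at an adjusted p of 0.0492 that was lost without early replicate 3 or either E10.5 library and on CPM as deposited, and Meis1 did not pass. Of all 12 RA genes tested 2 rose and 4 fell, with a median of -0.07 that turned positive without early replicate 2 or E10.5 replicate 1, and there were 2 higher and 2 lower without E10.5 replicate 1, and 2 higher and 3 lower without E10.5 replicate 3.

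The ridge list fell almost as a whole. Of 10 genes 9 fell, none rose, and Dlx6 did not pass the test (median -0.72). Of the 4 FGF ligands of ectoderm, which the FGF list counts, only Fgf8 fell. The others had changes above 0 that did not pass the test (median of the 4 genes 0.46). Sp6, a zinc finger factor needed for the ridge, was at 41.1, 54.3 and 51.2 CPM early and 17.8 and 19.4 CPM at E10.5 (log2 fold change -1.37 ± 0.12, adjusted p = 7.47e-05), and it shares 3329 of its 3841 exonic bases with Gm11532 on the other strand. Sp8, with which it acts, was at 22.998, 32.3 and 27.3 CPM early and 10.6 and 15.3 CPM at E10.5 (log2 fold change -1.07 ± 0.18, adjusted p = 0.00287). Dlx3, a homeobox gene of ectoderm, was at 16.96, 23.1 and 20.8 CPM early and 8.36 and 10.2 CPM at E10.5 (log2 fold change -1.08 ± 0.15, adjusted p = 0.000627). In all of these the E10.5 libraries lay below each early one. Fgf8, the main FGF of the ridge, fell by less, from 56.6, 49.96 and 46.5 CPM to 40.1 and 37.7 CPM (log2 fold change -0.38 ± 0.09, adjusted p = 0.0103), and lost its call without either E10.5 library. The ridge list kept 7 lower genes without E10.5 replicate 1 and 6 without E10.5 replicate 3. Genes of the dorsal-ventral axis fell too, with Wnt7a of the dorsal ectoderm at 24.04, 31.98 and 34.8 CPM early and 13.2 and 9.68 CPM at E10.5 (log2 fold change -1.36 ± 0.18, adjusted p = 0.000988). En1 of the ventral ectoderm was at 8.03, 9.61 and 8.72 CPM early and 4.01 and 3.73 CPM at E10.5 (log2 fold change -1.08 ± 0.16, adjusted p = 0.00088). Lmx1b of the dorsal mesenchyme was at 47.3, 37.1 and 43.3 CPM early and 27.01 and 29.9 CPM at E10.5 (log2 fold change -0.57 ± 0.11, adjusted p = 0.00328). The call of Lmx1b was lost without E10.5 replicate 1. Of these 3 genes 2 fell without E10.5 replicate 1 and 3 without E10.5 replicate 3. Markers of the surface ectoderm moved with these genes. Of the 10 markers 6 fell and 1, Krt14, rose (median -0.33). Without E10.5 replicate 1 3 fell and without E10.5 replicate 3 4, and none rose in either case. Tfap2a and Krt18 were lost without either of them and Cdh1 without the former. The summed level of the markers was 359.6 to 412 CPM in the early libraries and 289 to 317 CPM at E10.5, with none at 0. Epcam, an adhesion protein of epithelia, was among those that fell (-0.44 ± 0.08 on the log2 scale). In whole buds fewer cells of a type and less RNA per cell cannot be told apart, and the part of the ectoderm's share in the fall of the ridge genes was not tested.

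Of 22 genes of the FGF pathway 2 rose, 5 fell and 15 did not pass (median -0.00), and there were 1 higher and 1 lower without E10.5 replicate 1, and 0 higher and 0 lower without E10.5 replicate 3. Fgf10, the mesenchymal ligand that sustains the ridge, was at 44.9, 48.5 and 47.5 CPM early and 38.9 and 38.4 CPM at E10.5 (log2 fold change -0.28 ± 0.07, adjusted p = 0.0175), lower in both E10.5 libraries, a call lost without either of them or without early replicate 2 or 3. Fgf4, a posterior ridge FGF, had 3.23, 1.15 and 0.779 CPM early and 5.05 and 3.56 CPM at E10.5 without passing the test (adjusted p = 0.061). Of the feedback genes Spry2 rose (0.50 ± 0.11) and Dusp6, the MAP kinase phosphatase, was lower (-0.21 ± 0.07, adjusted p = 0.0496), both on the log2 scale. Spry2 was lost without either E10.5 library. The call of Dusp6 was made in 8 of 18 settings, and was lost without early replicate 2, early replicate 3 or E10.5 replicate 3, on CPM as deposited and with other pseudocounts among others. Etv4 and Etv5, ETS factors that follow FGF signalling, did not pass.

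Among WNT genes 10 of 29 fell and 4 rose (median -0.20). Among those that fell were Tcf7 and Lef1, transcription factors through which the pathway acts. Tcf7 was at 126, 148 and 152 CPM early and 66.9 and 63.1 CPM at E10.5 (log2 fold change -1.12 ± 0.08, adjusted p = 2.49e-05). Lef1 was at 86.7, 106 and 104 CPM early and 47.04 and 51.8 CPM at E10.5 (log2 fold change -0.99 ± 0.09, adjusted p = 0.000112). Both held under each setting. Tcf7l2, a factor of the same family that is counted in the connective tissue list, rose instead (adjusted p = 0.00156), also under each setting. The R-spondins, secreted proteins that raise WNT signalling, went different ways. Rspo3 rose from 7.32, 4.53 and 4.93 CPM to 20.9 and 18.8 CPM (log2 fold change 1.77 ± 0.19, adjusted p = 0.000228). Rspo1 fell from 12.6, 12.7 and 12.7 CPM to 5.40 and 5.43 CPM (log2 fold change -1.16 ± 0.13, adjusted p = 0.000274), and Rspo2 of the ridge fell as well (-0.64 ± 0.10 on the log2 scale). Each of the 3 calls held under each setting. Wnt5a, the ligand of the distal mesenchyme, was at 113, 106 and 106 CPM early and 116 and 127 CPM at E10.5 (adjusted p = 0.0724). The WNT list had 2 higher and 6 lower without E10.5 replicate 1, and 1 higher and 10 lower without E10.5 replicate 3.

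BMP genes gave 8 higher and 6 lower of 26 tested (median 0.18). Gdf5, a BMP-family ligand of joint interzones, was at 0.333, 0.0996 and 0.156 CPM in the early HLBs, near the level of 3 reads, and at 3.48 and 1.87 CPM at E10.5 (adjusted p = 0.00101), and it shares exonic bases with a gene on the other strand. Bmp7 (-0.42 ± 0.07) and Bmp4 (-0.29 ± 0.09) fell, while the receptors Bmpr1a (0.29 ± 0.05), Bmpr1b (0.60 ± 0.16) and Bmpr2 (0.33 ± 0.10) rose, all on the log2 scale. Bmp4, Bmpr1b and Bmpr2 were lost without early replicate 3 or E10.5 replicate 1, Bmpr2 also without E10.5 replicate 3 and Bmp4 on CPM as deposited. Bambi, a membrane decoy that dampens BMP signalling, fell from 64.6, 78.6 and 74.8 CPM to 43.9 and 39.4 CPM (log2 fold change -0.79 ± 0.09, adjusted p = 0.00032). Grem1, the antagonist that links Shh to the ridge, was higher in both E10.5 libraries (30.4, 16.6 and 21.8 CPM early and 38.7 and 35.5 CPM at E10.5) without passing the test (adjusted p = 0.0709). The list had 4 higher and 2 lower without E10.5 replicate 1, and 6 higher and 4 lower without E10.5 replicate 3.

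Core mesenchyme factors divided as well, with 7 higher and 4 lower of 19 (median 0.31). Prrx1, the paired homeobox gene that defines limb mesenchyme, was at 457, 376 and 395 CPM early and 702 and 675 CPM at E10.5 (log2 fold change 0.76 ± 0.08, adjusted p = 0.000258). Tbx18, a T-box gene of the proximal bud, was at 29.4, 18.6 and 22.6 CPM early and 57.2 and 64.2 CPM at E10.5 (log2 fold change 1.37 ± 0.18, adjusted p = 0.00165). Twist1, a bHLH factor of undifferentiated mesenchyme, was at 241, 303 and 306 CPM early and 170.4 and 170.2 CPM at E10.5 (log2 fold change -0.72 ± 0.10, adjusted p = 0.00188). In these genes the stages were apart, and the calls held in each setting. Hand1, with which Twist1 can pair, fell from a widely spread early level of 4.99, 21.6 and 13.9 CPM to 1.39 and 1.70 CPM (log2 fold change -2.56 ± 0.63, adjusted p = 0.0438), a call lost without early replicate 3 or either E10.5 library. Sall1, a zinc finger factor of the distal mesenchyme, rose from 62.1, 52.2 and 57.5 CPM to 119 and 117 CPM (log2 fold change 1.04 ± 0.08, adjusted p = 2.49e-05). Its relative Sall4 fell from 60.4, 66.1 and 73.8 CPM to 42.2 and 42.1 CPM (log2 fold change -0.65 ± 0.09, adjusted p = 0.000537). Mycn, a proto-oncogene of the proliferating distal bud, fell from 197, 199 and 204 CPM to 114 and 110.2 CPM (log2 fold change -0.83 ± 0.05, adjusted p = 8.86e-06). The mesenchyme list had 4 higher and 2 lower without E10.5 replicate 1, and 5 higher and 1 lower without E10.5 replicate 3. In the list of proximal, middle and distal genes, to which Sall1, Sall4 and Mycn belong, 4 rose and 8 fell of 18 (median -0.10), with 3 higher and 4 lower without E10.5 replicate 1, and 2 higher and 5 lower without E10.5 replicate 3. Shox2, a homeobox gene of the proximal segment, was at 45.04, 21.9 and 26.4 CPM early and 63.1 and 68.7 CPM at E10.5, higher in both E10.5 libraries, without passing the test (adjusted p = 0.0884).

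The heterochronic genes, named for their role in developmental timing, gave 4 lower and 1 higher of 8, a count that was the same without any 1 library. Lin28a, an RNA-binding protein that blocks let-7 miRNA processing, was at 299, 405 and 387 CPM early and 104 and 87.6 CPM at E10.5 (log2 fold change -1.91 ± 0.15, adjusted p = 0.000789). Both E10.5 libraries lay far below every early one. Its paralog Lin28b was at 271, 312 and 313 CPM early and 204 and 182 CPM at E10.5 (log2 fold change -0.62 ± 0.07, adjusted p = 0.000401). Trim71, a let-7 target, was at 52.7, 51.7 and 58.8 CPM early and 32.9 and 24.4 CPM at E10.5 (log2 fold change -0.92 ± 0.12, adjusted p = 0.000627). The chromatin protein Hmga1 was at 180.3, 192 and 215 CPM early and 98.9 and 109 CPM at E10.5 (log2 fold change -0.91 ± 0.08, adjusted p = 6.56e-05). Hmga2 was the member that rose (0.30 ± 0.05 on the log2 scale), and Igf2bp1, Igf2bp2 and Igf2bp3 did not pass the test. Nr6a1, an orphan nuclear receptor of the early embryo and a gene of the 15 largest falls, was at 35.9, 49.3 and 47.4 CPM early and 12.02 and 11.5 CPM at E10.5 (log2 fold change -1.85 ± 0.13, adjusted p = 2.49e-05). The promoter of Lin28a is shown because it led this list, with its 1 GC box in capitals, at chr4:134018767-134019066 on the minus strand of GRCm38.p6.
Lin28a: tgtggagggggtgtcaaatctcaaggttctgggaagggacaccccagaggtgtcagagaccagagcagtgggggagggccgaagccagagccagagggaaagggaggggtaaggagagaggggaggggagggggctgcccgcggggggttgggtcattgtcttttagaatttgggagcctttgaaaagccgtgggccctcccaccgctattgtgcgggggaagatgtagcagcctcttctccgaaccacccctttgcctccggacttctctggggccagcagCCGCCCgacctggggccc
It held no TATA or CCAAT box in this window.

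Genes of growth, cell division and glycolysis followed. Igf1, a growth factor, was at 29.7, 31.6 and 27.6 CPM early and 61.9 and 68.4 CPM at E10.5 (log2 fold change 1.12 ± 0.09, adjusted p = 3.01e-05). Cdkn1c, a cell cycle inhibitor, was at 165, 136 and 154 CPM early and 261 and 287 CPM at E10.5 (log2 fold change 0.85 ± 0.08, adjusted p = 0.000141). The stages did not overlap in either gene, and Cdkn1c shares exonic bases with a gene on the other strand. Dlk1, an imprinted inhibitor of differentiation, fell from 345, 560.3 and 480.1 CPM to 146 and 157 CPM (log2 fold change -1.58 ± 0.24, adjusted p = 0.017), a call lost without early replicate 3 or E10.5 replicate 1. In the growth list 4 genes rose and 3 fell of 10, with 5 higher and 1 lower without E10.5 replicate 1, and 1 higher and 1 lower without E10.5 replicate 3. Of 33 cell cycle genes 7 rose and 7 fell (median -0.01), none by 2-fold. That even split became 9 higher and 3 lower on CPM as deposited, and there were 5 higher and 2 lower without E10.5 replicate 1, and 4 higher and 1 lower without E10.5 replicate 3. Glycolytic genes fell in 8 of 14 cases, and Hk1 alone rose (median -0.28). Hk2, an inducible hexokinase, was at 96.7, 119 and 119 CPM early and 53.7 and 58.6 CPM at E10.5 (log2 fold change -0.98 ± 0.09, adjusted p = 0.000165), and Eno1, or enolase, fell by less (-0.47 ± 0.06 on the log2 scale). The call of Hk1 was lost without E10.5 replicate 1. Of the glycolytic genes, 3 fell without E10.5 replicate 1 and 3 without E10.5 replicate 3. Among adhesion and guidance genes 9 of 22 rose and 3 fell. Nrp2, a semaphorin receptor, was at 166, 144 and 140.3 CPM early and 247 and 260.0 CPM at E10.5 (log2 fold change 0.76 ± 0.07, adjusted p = 0.000123). Nrp1 rose by 0.69 ± 0.09 and Epha7 by 0.66 ± 0.10 on the log2 scale. That list had 6 higher and 1 lower without E10.5 replicate 1, and 5 higher and 0 lower without E10.5 replicate 3.

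**Figure D4:**
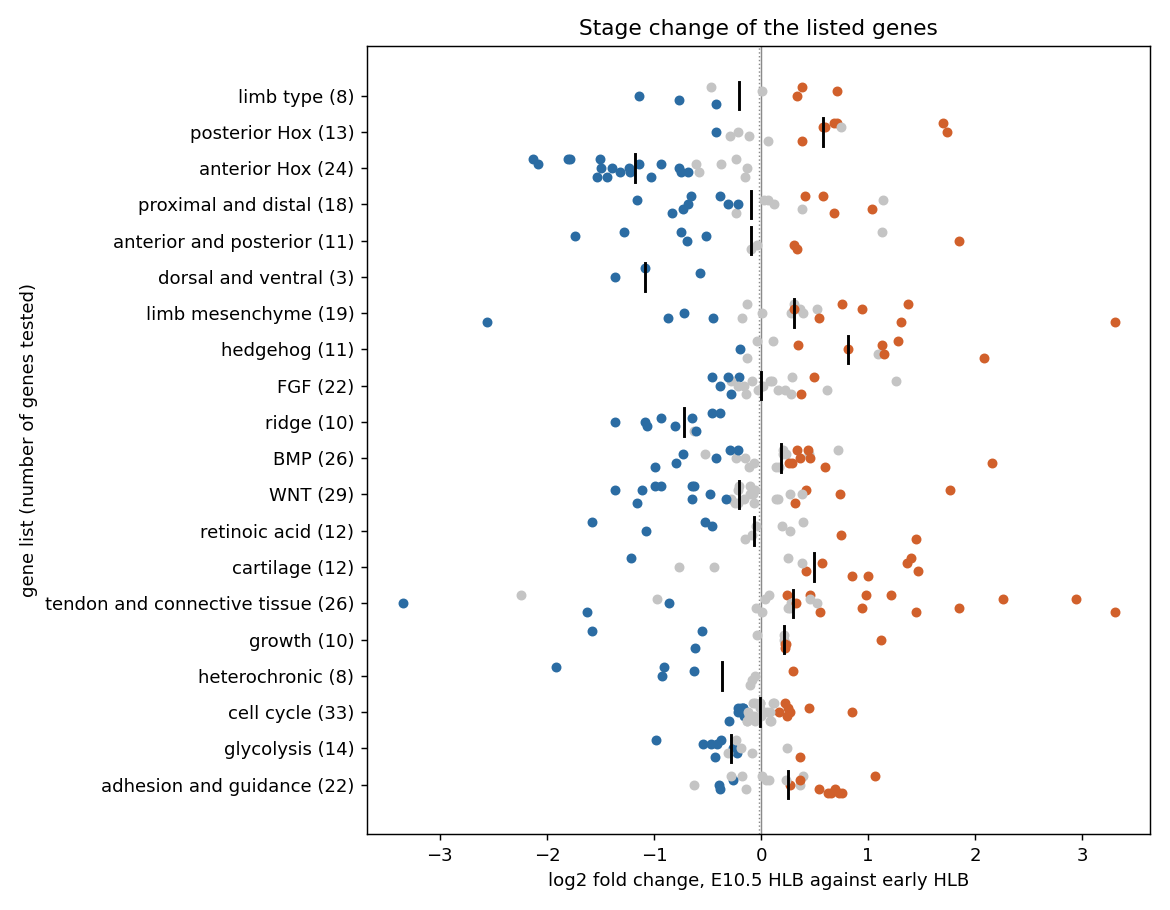
Log2 fold change between E10.5 and early HLBs (horizontal axis) of each tested gene of 20 lists (vertical axis, number tested in brackets), orange where the gene rose, blue where it fell and grey where it did not pass the test, with a black bar at the median of each list and a dotted line at the median of all genes. The anterior Hox, dorsal and ventral, and ridge lists lie to the left of 0, and the hedgehog, posterior Hox and cartilage lists have the medians farthest to the right.

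Cells other than limb mesenchyme and ectoderm were followed by their markers. Of 10 endothelial markers 5 fell and none rose, of which 1 (Erg) fell without E10.5 replicate 1, 2 (Erg and Kdr) without E10.5 replicate 3 and 2 without early replicate 3. They had summed levels of 427 to 512 CPM early and 390.1 to 409 CPM at E10.5. None of 8 erythroid markers passed the limma test, with 2 at an unadjusted p below 0.05, although 6 fell without early replicate 3. Their sum was 3161 to 6509.8 CPM early, where replicate 3 held about as much as the E10.5 libraries, with 2608 to 3741 CPM. Of 4 tested muscle precursor markers 2 rose, and 1 of 3 without either E10.5 library. Met, a receptor of migrating precursors, rose from 28.2, 28.3 and 27.1 CPM to 41.3 and 45.8 CPM (log2 fold change 0.63 ± 0.08, adjusted p = 0.000537). Myf5, the first myogenic factor, rose from 0, 0.0996 and 0 CPM, under the level of 3 reads, to 1.39 and 2.38 CPM (adjusted p = 0.00105). Myod1 and Myog did not reach the filter on low values, and the summed level of the 7 markers was 36.4 to 47.4 CPM early and 64.3 to 65.2 CPM at E10.5. Of the neural markers, Sox10 and Foxd3, which define neural crest, were at 0 in the early libraries, and Ngfr, which they accompany there, fell from 41.2, 59.5 and 61.9 CPM to 12.02 and 14.3 CPM (log2 fold change -1.99 ± 0.18, adjusted p = 0.000401). Dcx, a microtubule protein of young neurons, was at 23.1, 7.87 and 10.9 CPM early and 77.7 and 76.4 CPM at E10.5 (adjusted p = 0.0405), a call lost without early replicate 2, early replicate 3 or either E10.5 library, while Tubb3 did not pass the test and Elavl3 and Neurog2 were at or under the level of 3 reads. Of 4 tested somite and sclerotome markers Pax1 and Tbx18 rose and Meox1 fell. Pax1, which the limb girdle region also uses, was at 0.333, 0.0498 and 0.363 CPM early and 4.88 and 3.73 CPM at E10.5 (adjusted p = 0.000245), and was too low to test without either E10.5 library. Meox1, a homeobox gene of somites, fell by less (log2 fold change -0.39 ± 0.12, adjusted p = 0.0295), a call lost without early replicate 2, early replicate 3 or E10.5 replicate 1. Uncx and Nkx3-2 were under 1 CPM in all. The 3 tested macrophage markers gave 1 call, Csf1r (0.78 ± 0.22 on the log2 scale, lost without early replicate 2 or either E10.5 library, and with E10.5 replicate 2 added), and of 6 tested immediate early and stress genes Junb and Egr1 fell, with 1 call without either E10.5 library and none without early replicate 3. Foxa1 and Foxa2 of gut endoderm were at or near 0, and of the 5 markers of intermediate mesoderm and coelomic lining Wt1 and Upk3b were measurable without passing the test, though Wt1 fell without E10.5 replicate 3 and Upk3b without early replicate 1. The part of these cells in the changes given above was not tested.

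The 15 largest rises and 15 largest falls were taken among called genes that reached 16 CPM in 1 stage with no overlap between stages, a pool of 2808. Rises not yet named included Gm9846, Pmaip1, Pcdh10, Fibin, Mab21l2, Synpo, Robo2, Cbln1, Meox2 and Gjb2. Pmaip1, a BH3-only protein of cell death, was at 5.13, 1.64 and 3.53 CPM early and 54.9 and 55.5 CPM at E10.5 (log2 fold change 3.93 ± 0.40, adjusted p = 0.00187). The E10.5 limb bud libraries, fore and hind, were above all other libraries for this gene. Gm9846 varied most, with 6.66, 4.83 and 0.916 CPM early and 124 and 411 CPM at E10.5, and its call was lost without any 1 early library or without E10.5 replicate 3. Mab21l2, a gene of limb and eye development that shares exonic bases with Lrba on the other strand, was at 25.8, 12.8 and 15.1 CPM early and 122 and 134 CPM at E10.5 (log2 fold change 2.87 ± 0.34, adjusted p = 0.00732). Robo2, a receptor of Slit proteins, was at 21.9, 14.5 and 11.6 CPM early and 63.2 and 72.3 CPM at E10.5 (log2 fold change 2.09 ± 0.26, adjusted p = 0.00328). Meox2, a homeobox gene of limb muscle precursors, was at 15.3, 8.32 and 7.48 CPM early and 36.1 and 37.7 CPM at E10.5 (log2 fold change 1.85 ± 0.29, adjusted p = 0.00675). In each of these genes both E10.5 libraries were well above the highest early library, although the call of Mab21l2 was lost without early replicate 3, that of Robo2 without early replicate 2, and that of Meox2 without early replicate 2 or E10.5 replicate 3. Of the others, Pcdh10 was lost without early replicate 2, early replicate 3 or E10.5 replicate 3, Synpo without early replicate 3 and Cbln1 without E10.5 replicate 1.

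Falls not yet named included C230091D08Rik, 9530082P21Rik, Peg3as, Doc2a, Rplp2-ps1, Crym, Ppp2r2c, Gata6 and Amica1. Of all 15 falls, 9 had each of the 6 early limb bud libraries, fore and hind, above all 20 other libraries analysed. That held for 64 of the 248 genes that fell 2-fold and 1103 of all genes tested. In 56 of the 225 genes that rose 2-fold the early limb bud libraries lay below all 20 others, against 380 of all genes tested. C230091D08Rik was at 19.1, 21.8 and 19.3 CPM early and 0.174 and 0 CPM at E10.5. 9530082P21Rik was at 40.2, 36.2 and 38.99 CPM early and 0.871 and 0.509 CPM at E10.5. Peg3as, an antisense transcript of the Peg3 locus, was at 19.8, 28.7 and 18.7 CPM early and 0.697 and 0.849 CPM at E10.5. The E10.5 libraries of each were near 0. Of these genes 9530082P21Rik shares exonic bases with Flywch1 on the other strand, and so does Doc2a with Ino80e. Over 451 tested genes that share at least 25% of their exonic bases with a gene on the other strand, 27.3% fell and 10.9% rose, against 16.2% and 13.1% of the 11023 other genes with an annotation. The part of such pairs in the falls was not tested. Crym, a thyroid hormone-binding protein, was at 26.8, 23.01 and 27.1 CPM early and 6.27 and 3.90 CPM at E10.5 (log2 fold change -2.25 ± 0.18, adjusted p = 4.11e-05), with no such sharing. Gata6, a zinc finger factor of heart and anterior limb, stood at 18.9, 46.7 and 36.1 CPM early and 8.71 and 8.83 CPM at E10.5 (log2 fold change -1.80 ± 0.42, adjusted p = 0.042), with early replicate 1 nearest to the E10.5 libraries and a call that was lost without early replicate 3 or either E10.5 library, and with E10.5 replicate 2 added.

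The same stage step in FLBs, measured in 3 early and 3 E10.5 libraries, was compared with that of HLBs. Over 12649 genes the log2 fold changes of both limb types had Pearson's r = 0.788 and Spearman's rho = 0.749 across genes, which are not independent replicates, and the early libraries of both limb types share their library set. Of the 3679 genes called in HLBs 96.6% moved in the same direction in FLBs, against 78.8% of all genes tested. The change was larger in FLBs for 322 of the 473 2-fold genes. In 1 fit over the 11 libraries the stage change differed between the limb types in 3218 of 13156 genes (24.5%) at an adjusted p below 0.05. Since the early FLBs are placed at an earlier stage than the early HLBs, the length of the interval and the limb type cannot be told apart.

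The change of posterior Hox genes differed widely between the limb types. Hoxd12 rose in FLBs from 0.115 CPM, under the level of 3 reads, to 90.9 CPM on average, and the fitted log2 change of HLBs minus that of FLBs was -5.53 ± 0.22 (adjusted p = 2.33e-11). Hoxd11, which did not change by test in HLBs, rose in FLBs from 2.07 to 54.2 CPM (difference -4.39 ± 0.29, adjusted p = 2.7e-06). The early HLBs already held these genes, and the early FLBs had almost none. Osr2 rose from 0.375 to 30.5 CPM in FLBs, also a larger step than in HLBs (difference -1.88 ± 0.32, adjusted p = 0.000363). Lin28a fell further in FLBs, from 422 to 9.46 CPM (difference 3.54 ± 0.34, adjusted p = 0.000381). For Shh (-1.53 ± 0.56, adjusted p = 0.0736), Scx (adjusted p = 0.115), Col12a1 (adjusted p = 0.538), Dlk1 (adjusted p = 0.974) and Col14a1 (adjusted p = 0.794) the difference did not pass the test, which does not show that the limb types changed alike.

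Some genes changed in opposite directions. Rspo1 fell in HLBs and rose in FLBs, from 4.21 to 10.2 CPM (difference -2.37 ± 0.26, adjusted p = 5.79e-06). Prrx2, the relative of Prrx1, rose in HLBs (0.31 ± 0.08, lost without either E10.5 library) and was lower in FLBs (-0.35), both on the log2 scale (adjusted p of the difference = 0.000261). Among all genes 36 of the 3679 called genes were called in the other direction in FLBs with a difference that passed the test.

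**Figure D5:**
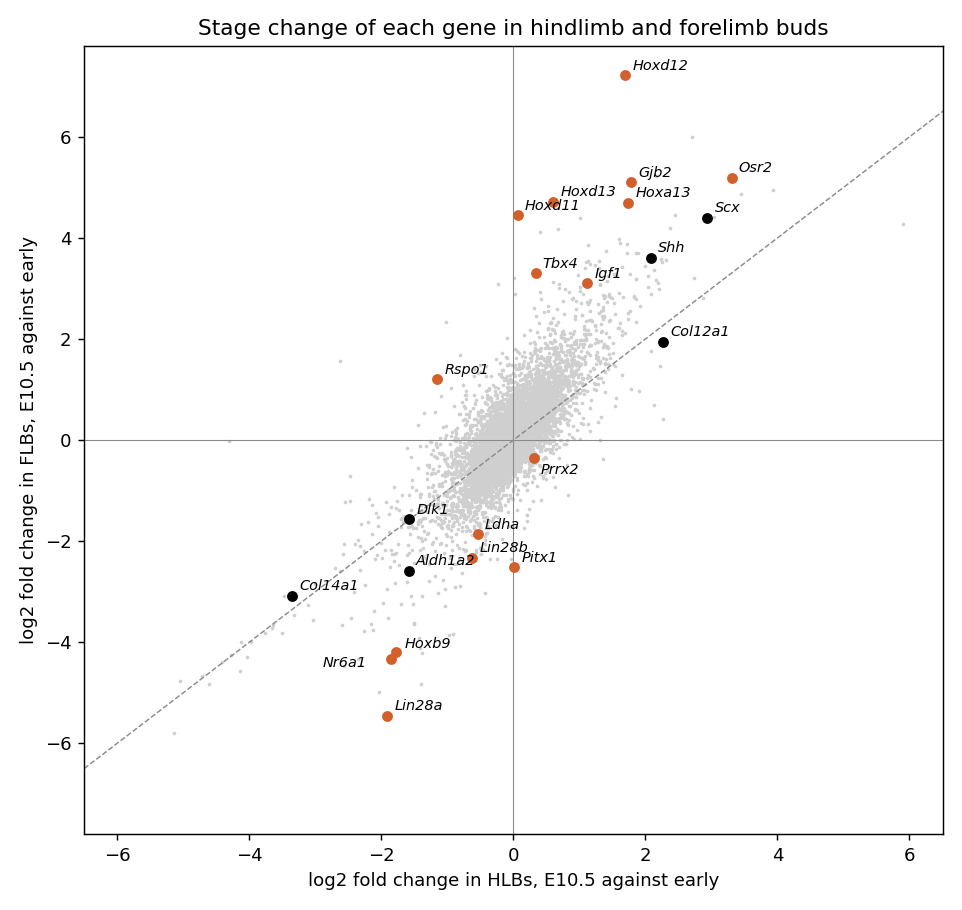
Log2 fold change between E10.5 and early buds in HLBs (horizontal axis) and in FLBs (vertical axis) for each of the 12649 genes tested, with the dashed line at equal change and named genes in orange where the stage change differed between limb types and in black where the difference did not pass the test. Most points rise with the line, Hoxd12 and Hoxd11 lie far above it, and Rspo1 lies at the upper left.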

How the data were processed

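RNA of whole limb buds was sequenced by the authors from stranded libraries, aligned to mm10 with HISAT2 2.0.4, quantified with Cuffdiff and passed to edgeR 3.16.2. The authors deposited 1 table of CPM values, or counts relative to all reads of a library, in which each library sums to 1000000. Values were not whole multiples of 1 read for every gene, so no count test was run. The share that were whole was 93.1 to 93.6% in the early HLBs and 98.9% in the E10.5 HLBs. It was 92.4 to 93.6% in the 6 early limb bud libraries and 96.7 to 99.0% in the 20 others. The CPM were scaled by trimmed means (30% of ratios and 5% of levels) over the 5 libraries, filtered at 1 CPM in 2 libraries, transformed to log2(CPM + 0.5) and tested with limma 3.58.1 (trend and robust), with Benjamini-Hochberg adjustment over all genes tested. Fold changes on this scale understate the change of low genes. The limb types were compared by an interaction term over 11 libraries. Groups came from the sample labels.

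Genes were named if they belonged to a gene list or to the 15 largest changes each way among called genes with at least 16 CPM in 1 stage and no overlap. The genes, lists and comparison were chosen with earlier results of these data known. Cnmd, Foxf1, Pkm and Snorc were in a list but not in the table. A few listed genes are counted but not reported here by name. Same-numbered libraries did not deviate together (correlations of -0.02 and 0.03), so the numbers were not taken to pair the samples. On simulated data the test recovered 45 of 55 genes changed 1.5-fold and 73 of 73 changed 2-fold in the HLB comparison (12578 genes tested). It also made 18 false calls there. This recovery does not show that every 2-fold change in the real libraries was found, since early replicates of some genes were widely spread. Gli1 and Shox2, for example, were higher in both libraries of the later stage without passing the test. Alternatives covered scaling, pseudocount, filter, model, depth and leaving out each library. Promoters came from RefSeq for 238 of 342 listed genes.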

Additional observations from a re-analysis of the deposited data

Results flagged for a closer look

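E10.5 HLB replicate 2, which was kept out of the comparison, has values for 320 of the 473 genes that changed 2-fold. In 310 of them (96.9%) it lay beyond all 3 early libraries on the same side as the other E10.5 libraries, in 10 it lay within the early range, and in none on the other side. Over 8184 genes tested with a value in this library, 74.5% lay outside the early range.

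Some named genes called in HLBs were singled out for their stage change. It differed between the limb types by at least 1 on the log2 scale at an adjusted p below 0.001, or was called in opposite directions. They were 40 of the 217 named genes called, out of 385 tested, and 38 are given here. Hoxd11, whose difference is given above, was not called in HLBs and is not among them. The values are the log2 change of HLBs minus that of FLBs. Hoxb1 was low in the early HLBs and not detected in the E10.5 ones. The pseudocount therefore bounds its hindlimb change (-1.40, against -4.83 in FLBs), and its difference is not a measured size. Among Hox genes the hindlimb value was lower for Hoxd12 (-5.53), Hoxd13 (-4.12), Hoxa13 (-2.96) and Hoxc10 (-1.25), which are posterior genes, and higher for Hoxb1 (3.43), Hoxb9 (2.41), Hoxb6 (2.15), Hoxb5 (1.59) and Hoxc9 (1.55), which are anterior ones or genes of group 9. Among the other genes it was lower for Gjb2 (-3.31), Pax1 (-3.29), Tbx4 (-2.96), Col9a2 (-2.33), Csf1r (-2.21), Col9a1 (-2.08), Igf1 (-1.99), Osr2 (-1.88), Rspo3 (-1.53), Osr1 (-1.33) and Epha4 (-1.27). It was higher for Lin28a (3.54), Nr6a1 (2.49), Lin28b (1.71), Sema3a (1.35), Ldha (1.32), Aldoa (1.21), Amica1 (1.19), Sall4 (1.14), Rdh10 (1.11), Trim71 (1.07), Eno1 (1.06) and Pgam1 (1.01), which include glycolytic enzymes and heterochronic genes. The genes given that were called in opposite directions were Rspo1 (-2.37), Prrx2 (0.66), Dusp6 (-0.46), Id3 (0.44), Gas1 (-0.34) and Bub1 (0.33). Of these 6 genes Rspo1 had the only difference above 1 in size. The HLB calls of Rspo1 and Id3 held in all 18 alternative settings with the adjusted p of 0.05, that of Prrx2 in 15, those of Gas1 and Bub1 in 11 and that of Dusp6 in 8. Bub1 was lost without early replicate 2, early replicate 3 or either E10.5 library and with E10.5 replicate 2 added, and Dusp6 in the fit of 4 limb bud groups from which the difference comes. The early FLBs and the early HLBs are placed at different stages, so that the interval and the limb type cannot be told apart in any of them.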

How the results depend on the processing

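The count of genes that differed, 3679, fell to 2339 with limma without trend and robust and to 530 at an adjusted p below 0.001. It ranged from 1718 (without E10.5 replicate 3) to 4373 (without early replicate 1) when 1 library was left out, with 1864 without E10.5 replicate 1 and 2179 without early replicate 3. Where 1 E10.5 library remained, it was assumed to vary like the early ones. The 2-fold count of 473 became 231 with a pseudocount of 2, 276 with a filter at 5 CPM and 157 at an adjusted p below 0.001, and ranged from 341 to 575 with 1 library left out. The count of genes whose change differed between limb types, 3218, became 635 at an adjusted p below 0.001 and ranged from 2200 to 3254. On CPM as deposited 2875 genes differed between limb types, but only 2134 of them were shared with the 3218. The cause of these moves was not tested. With the replicate number as a block, which the check of the numbers does not bear out as a pairing, 3232 genes were called (2943 of them shared), 451 past 2-fold, and 3266 differed between limb types. The remaining scalings, pseudocounts and filters left each count within 1.5 times, and so did adding E10.5 replicate 2 (4094), thinning to 1 depth (2787) and, chosen after seeing the data, leaving out genes that share exons with the other strand (3492). Of the 217 named genes called, 122 of 212 kept their call without E10.5 replicate 3 199 under the block, 161 of 217 with limma without trend and robust and 186 of 216 with thinned reads, and none changed direction under any alternative. Of the single calls the report gives, those of Bmp4, Dusp6, Gas1, Krt18, Meis2, Meox1 and Tfap2a were also lost on CPM as deposited, those of Dusp6, Krt18 and Meis2 with median of ratios scaling, those of Col3a1, Dusp6, Egr1, Hoxa10, Hoxa11, Hoxc9 and Krt18 in the fit of 4 limb bud groups, and those of Dusp6 and Hand1 with a pseudocount of 2. Adding E10.5 replicate 2 ended 5 named calls, of Aldh1a2, Gata6, Csf1r, Bub1 and Tfap2a. Tests on counts with edgeR and DESeq2 were planned and not run, because whole reads could not be recovered. The E10.5 depth of 5648200 to 5732770 reads limits genes below about 1 CPM, and 194 of the 473 genes were below 5 CPM on average in both stages.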
